A study of Mus musculus with 4 samples.

Results

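Neutrophil primary granule genes were followed across 4 single-cell RNA libraries of mouse embryos: Mpo, Elane, Prtn3 and Ctsg, found by their symbols in every library and making up 4 of the 31914 genes listed over the series. The study concerned how LTi (lymphoid tissue inducer) cells, the innate lymphocytes that start lymph node formation, arise. C57BL/6J embryos, with no mutant allele or treatment named, gave 4 groups of 1 library each: fetal liver at E14.5 (E for embryonic day), fetal liver at E13.5, and the embryonic periphery at E14.5 and at E13.5. All groups shared the same gate, live CD45+ F4/80- IL7Ra+ cells sorted after magnetic enrichment of CD45+ cells, so neutrophil precursors were not the cells sought. Whether embryos were pooled is not given in the sources used here. Fetal liver was made with version 3 and periphery with version 2 of the 10x Chromium 3' kit, so site and kit cannot be told apart. With 1 library per group no difference has a replicate check, and no p-value is given.

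Primary (azurophil) granules are the granules a developing neutrophil makes at the promyelocyte stage, before the secondary granules. Mpo encodes myeloperoxidase, a haem enzyme that makes hypochlorous acid from hydrogen peroxide and chloride. Elane (neutrophil elastase), Prtn3 (proteinase 3) and Ctsg (cathepsin G) encode related serine proteases, which are activated by the dipeptidyl peptidase of Ctsc and held on the proteoglycan core protein of Srgn. The fetal liver is the main site of blood formation at these stages, and Mpo transcripts are also known from multipotent and granulocyte-monocyte progenitors before any granule forms.

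The genes lie at 3 loci of GRCm38/mm10 in the GENCODE M21 annotation. Prtn3 (chr10:79874476-79883174, plus strand) and Elane (chr10:79886247-79888215, plus strand) are neighbours with 3072 bases between them, and Cfd follows Elane after 2637 bases. Mpo (chr11:87793581-87804413, plus strand) has the lactoperoxidase gene Lpo 2014 bases away. Ctsg (chr14:56099881-56102574, minus strand) lies 14607 bases from the basophil protease gene Mcpt8, in the chymase and granzyme cluster. All are protein-coding genes.

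Upstream sequence of each gene is shown with the PU.1 core AGGAAGT, a motif of the myeloid factor encoded by Spi1. In the 250 bases before the RefSeq start each gene holds 1 copy. Whether the motif bears on the levels of the genes was not tested. The lines below, from RefSeq on GRCm38.p6 and read 5' to 3' on the gene's own strand, stop where an annotated GENCODE exon begins, and capitals mark the PU.1 core. The stretches are chr11:87793534-87793580 for Mpo, chr10:79886062-79886246 for Elane and chr10:79879417-79879613 for Prtn3, all on the plus strand, and chr14:56102575-56102824 for Ctsg on the minus strand. The Prtn3 stretch lies within the extent of the GENCODE gene, outside its annotated exons, since GENCODE also places a start further upstream.
Mpo: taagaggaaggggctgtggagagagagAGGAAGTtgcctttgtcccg
Elane: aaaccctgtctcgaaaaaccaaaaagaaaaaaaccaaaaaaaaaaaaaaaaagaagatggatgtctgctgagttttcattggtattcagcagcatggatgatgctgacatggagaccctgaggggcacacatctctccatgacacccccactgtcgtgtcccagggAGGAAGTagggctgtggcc
Prtn3: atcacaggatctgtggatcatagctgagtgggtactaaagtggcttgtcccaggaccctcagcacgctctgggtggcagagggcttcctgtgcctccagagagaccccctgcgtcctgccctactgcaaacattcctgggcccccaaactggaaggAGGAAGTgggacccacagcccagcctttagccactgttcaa
Ctsg: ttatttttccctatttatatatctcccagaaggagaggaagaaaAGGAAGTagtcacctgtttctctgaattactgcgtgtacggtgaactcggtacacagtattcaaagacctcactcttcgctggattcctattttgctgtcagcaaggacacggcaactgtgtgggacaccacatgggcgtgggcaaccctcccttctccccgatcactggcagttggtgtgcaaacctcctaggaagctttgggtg
The core began 223 bases before the RefSeq start in Mpo, 84 in Elane, 94 in Prtn3 and 206 in Ctsg, on the strand of the gene in each case. Of 32851 RefSeq promoter windows of 250 bases, 7.69% held it on either strand. The C/EBP motif TTNNGCAA was in 0 of the 4 windows (9.56% of all windows), the GATA motif AGATAA in 0 (9.99%), the RUNX motif TGTGGT in that of Ctsg (14.05%) and the short MYB core AACNG in all 4 (74.2%). These are matches of letters, counted on both strands, and no binding was measured.

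The deposited matrices held 208229937 and 212034840 UMIs (unique molecular identifiers, each counting 1 captured transcript) for fetal liver at E14.5 and E13.5, and 44599592 and 53229734 for periphery at E14.5 and E13.5. After filtering, 10810 and 9776 fetal liver cells and 4340 and 4155 periphery cells were kept, with median depths of 15581.5 and 18187.5 UMIs in liver and 8448.5 and 11096 in periphery, at E14.5 and E13.5 in each pair. Libraries of 1 site shared 25 cell barcodes between stages, and libraries of different sites shared at most 1. Levels are UMIs of a gene per 1000000 UMIs of the cells (CPM) with exact 95% Poisson intervals in parentheses, and shares have exact Clopper-Pearson intervals. Both cover counting error only.

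The 4 genes were present in fetal liver at both stages, and over all kept cells Mpo and Prtn3 were lower while Elane and Ctsg were higher at E14.5. Mpo, the peroxidase, was at 452 CPM (449 to 455) in fetal liver at E14.5 against 823 (819 to 827) at E13.5, and at 31.2 CPM (29.6 to 33.0) in periphery at E14.5 against 43.5 (41.7 to 45.3) at E13.5. Prtn3, the proteinase 3 gene, was at 308 CPM (305 to 311) in liver at E14.5 and 456 (453 to 459) at E13.5, and at 2.53 CPM (2.07 to 3.06) in periphery at E14.5 and 23.1 (21.8 to 24.4) at E13.5. Both genes were thus lower at the later stage at each site, with intervals that did not overlap.

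Elane, the elastase gene, had 72.9 CPM (71.7 to 74.2) in fetal liver at E14.5 and 52.0 (51.0 to 53.0) at E13.5, but only 5 UMIs in the whole periphery library at E14.5 and 4 at E13.5. Ctsg, the cathepsin G gene, had 45.8 CPM (44.8 to 46.8) in liver at E14.5 and 23.5 (22.8 to 24.2) at E13.5, and 5.29 CPM (4.62 to 6.03) in periphery at E14.5 and 1.73 (1.38 to 2.13) at E13.5. Every gene was higher in fetal liver than in periphery at the same stage, a difference of site and kit together.

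**Figure D1:**
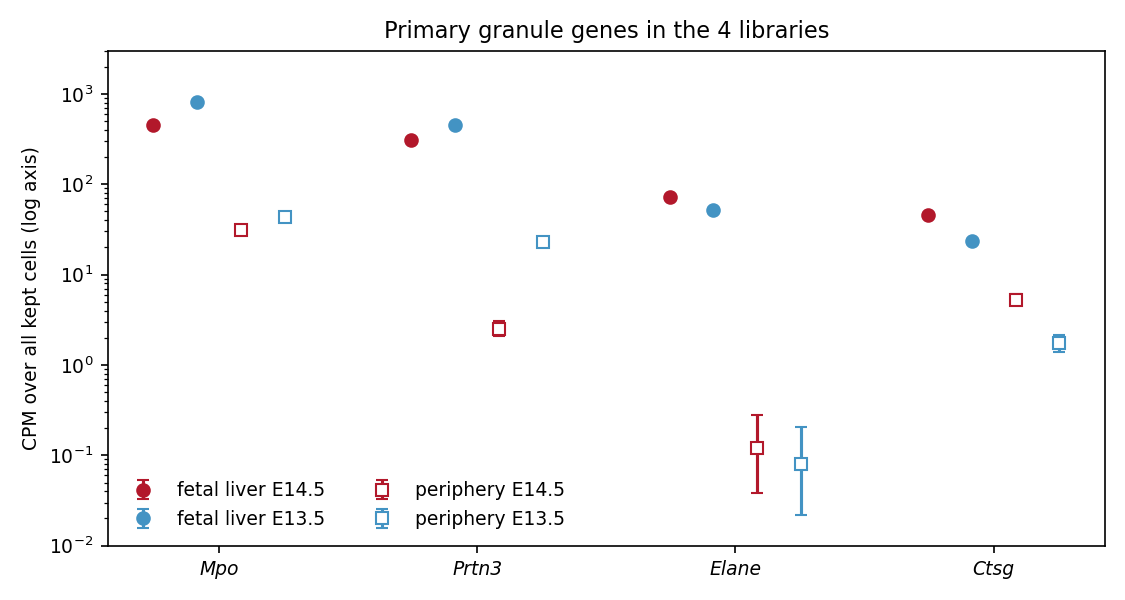
CPM of each gene over all kept cells (log axis) in the 4 libraries, with filled circles for fetal liver, open squares for periphery, red for E14.5 and blue for E13.5. Bars are 95% Poisson intervals. Elane rests on 5 and 4 UMIs in periphery at E14.5 and E13.5.

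As log2 folds of E14.5 over E13.5, after adding 5 CPM and subtracting the median of all measured genes (10 CPM or more in either library), the fetal liver values were -0.83 for Mpo, -0.53 for Prtn3, 0.48 for Elane and 0.86 for Ctsg. None of the 4 reached 1 log2 unit, which 1.29% of the 7744 measured genes did upward and 0.31% downward. In periphery the fold was -0.65 for Mpo and -2.13 for Prtn3. There 2.31% of 7243 measured genes were lower by 1 log2 unit or more and 1.44% higher, and the median subtracted was 0.23. Elane and Ctsg were below the measured level in periphery.

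The genes differed in how their UMIs were spread over cells. The top 1% of cells for each gene held 95.6% of Elane UMIs at E14.5 and 81.3% at E13.5 in fetal liver, while the same share of cells held 23.0% of Mpo UMIs at E14.5 and 19.6% at E13.5. For Prtn3 these were 44.4% and 26.3%, and for Ctsg 58.6% and 81.3%. Elane and Ctsg were thus concentrated in few cells and Mpo was spread over many. For comparison, the 1% of deepest cells held 2.99% of all UMIs at E14.5 and 2.77% at E13.5.

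With each cell thinned to 3000 UMIs (401 shallower cells left out at E14.5 and 194 at E13.5), Mpo was seen in 30.3% (29.4 to 31.2) of fetal liver cells at E14.5 and 50.2% (49.2 to 51.2) at E13.5. Without thinning these shares were 46.4% and 70.7%. Prtn3 was seen in 20.6% (19.9 to 21.4) of thinned cells at E14.5 and 34.9% (34.0 to 35.9) at E13.5. Elane was seen in 1.59% and 2.15%, and Ctsg in 4.39% and 1.80%, at E14.5 and E13.5. Unthinned, Prtn3 was in 39.5% and 63.2%, Elane in 3.84% and 4.16% and Ctsg in 8.10% and 4.25% of cells.

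B lineage-like cells of fetal liver were taken as the background, and whether they lack all 4 genes was not tested. Empty droplets were not analysed here, so how much of it is free RNA was not tested. In their thinned cells at E14.5, Mpo was seen in 2.69%, Prtn3 in 2.36%, Ctsg in 0.384% and Elane in 0.266%, at a median depth of 16230 UMIs in 3418 cells. The corresponding CPM were 8.97 for Mpo, 7.42 for Prtn3, 1.27 for Elane and 1.17 for Ctsg, between 1.74% and 2.55% of the library level for all 4 genes. At E13.5 only 117 such cells were present, with 30.5 CPM of Mpo, 11.7 of Prtn3 and 0 UMIs of Elane and Ctsg, which allows up to 2.39 CPM of each. The share of the library level was not uniform between sites. In the B lineage-like cluster P6 of the periphery at E13.5, Mpo was at 18.2 CPM and Prtn3 at 5.16. These were 41.8% and 22.4% of the library level, against 3.88% and 6.85% in P6 at E14.5.

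The genes were also counted together in thinned cells. All 4 were seen in 115 fetal liver cells at E14.5 and 107 at E13.5. Mpo with Prtn3 and neither of the others was seen in 1126 cells at E14.5 and 2295 at E13.5, and Mpo alone in 1582 and 2253. Mpo with Ctsg but without Elane or Prtn3 was seen in 151 cells at E14.5 and 13 at E13.5, and Mpo with Elane but without the others in 7 and 8. Elane was rarely seen alone, in 18 cells at E14.5 and 7 at E13.5. No gene was seen in 6469 of 10409 cells at E14.5 and 3952 of 9582 at E13.5.

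Clustering of the fetal liver cells, with the 4 genes left out of the variable genes, placed the highest level of every gene in cluster FL13, called neutrophil lineage-like because 12 of 13 fixed markers other than the members were detected there. Its leading genes included S100a8 and S100a9 (calprotectin subunits), Ms4a3 (a granulocyte-monocyte progenitor gene), Camp (cathelicidin of secondary granules) and Olfm4. It held 131 cells (1.21%) at E14.5 and 214 (2.19%) at E13.5, at median depths of 18243 and 18515 UMIs. Il7r, which encodes the receptor used in the gate, was at 12.6 CPM (8.53 to 17.8) in FL13 at E14.5 and 4.97 (3.04 to 7.68) at E13.5, against 188 and 151 CPM over all kept cells, and Ly6g, a late neutrophil surface marker, had 6 and 5 UMIs in the whole libraries. Of 12 monocyte or macrophage markers, 5 were at 20 CPM or more in FL13 at each stage, with a summed level of 1012 CPM at E14.5 and 1554 at E13.5 and with C1qb and C1qc at 0. Of 6 eosinophil markers, 3 were at that level, summing to 277 and 532 CPM. Of 10 B lineage markers, 5 were at that level at E14.5 and 1 at E13.5, summing to 333 and 83.8 CPM. Of 10 mast cell or basophil markers, 2 were at that level at each stage, summing to 297 and 387 CPM, with Cma1, Tpsb2 and Mcpt4 at 0. The part of these markers in the results was not tested.

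**Figure D2:**
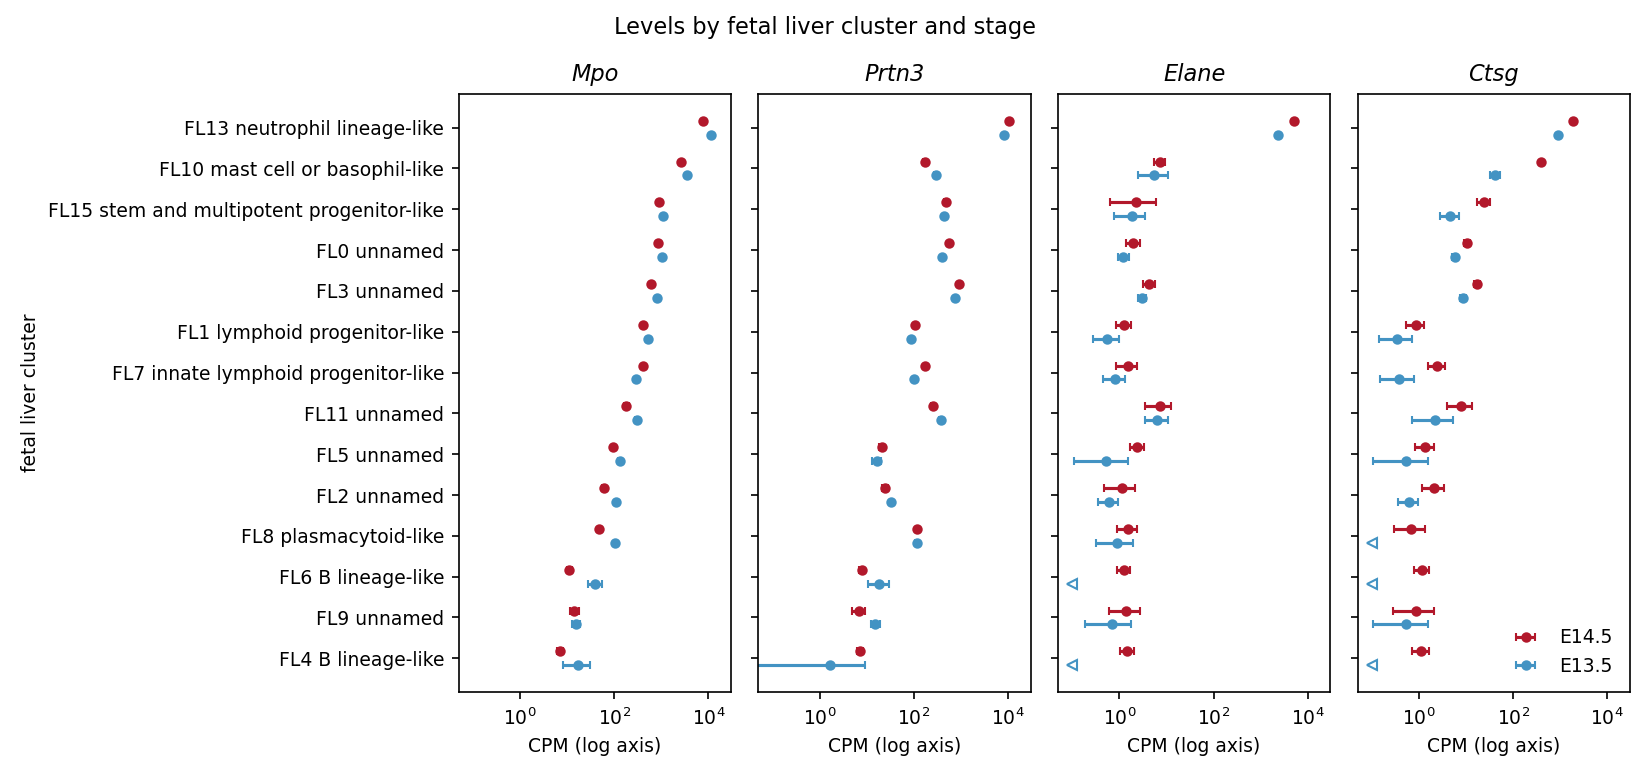
CPM of each gene (log axis) in the fetal liver clusters with 50 or more cells in each library, E14.5 in red above E13.5 in blue, with 95% Poisson intervals and open triangles where no UMI was counted. All 4 genes are highest in FL13, Mpo and Prtn3 reach across the progenitor clusters, and Elane outside FL13 stays below 8 CPM.

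Mpo had the widest spread of the 4 genes over clusters. It was at 7573 CPM (7465 to 7682) in FL13 at E14.5 and 11058 (10956 to 11162) at E13.5. Next came FL10, a mast cell or basophil-like cluster led by Mcpt8 and Prss34, at 2646 CPM (2609 to 2683) at E14.5 and 3539 (3448 to 3632) at E13.5. Both clusters stood well above every other one.

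Below them, Mpo was at 890 CPM at E14.5 and 1066 at E13.5 in the stem and multipotent progenitor-like cluster FL15, and at 863 and 1047 CPM in the unnamed cluster FL0, led by Adgrl4 and Ctla2a. The intervals of FL15 and FL0 overlapped at each stage. FL3, unnamed and led by genes that include Csf1r and Irf8, had 614 and 827 CPM, and the lymphoid progenitor-like cluster FL1 had 405 (398 to 413) and 526 CPM, at E14.5 and E13.5. The innate lymphoid progenitor-like cluster FL7 was at 410 CPM at E14.5, not separable from FL1, and at 291 at E13.5. The clusters other than FL13 and FL10 together held 52.4% of Mpo UMIs at E14.5 and 66.9% at E13.5.

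Prtn3 was also highest in FL13, and the order below it differed from that of Mpo. FL13 had 10380 CPM (10253 to 10508) at E14.5 and 8359 (8269 to 8448) at E13.5, and FL3, the Csf1r and Irf8 cluster, came next at 901 (884 to 919) and 747 CPM. FL0 had 560 and 392 CPM and FL15 had 476 and 446, so their order differed between the stages. In FL10 Prtn3 was at only 169 CPM (160 to 178) at E14.5 and 293 (268 to 321) at E13.5, although Mpo was high there. Prtn3 made up 6.00% of the joint Prtn3 and Mpo UMIs in FL10 at E14.5 and 7.66% at E13.5, against 59.5% and 47.5% in FL3 and 57.8% and 43.0% in FL13. The plasmacytoid-like cluster FL8 had more Prtn3 than Mpo at E14.5, with 118 CPM of Prtn3 and 48.0 of Mpo. At E13.5 the levels were close, at 114 and 106 CPM. Prtn3 made up 71.2% (69.1 to 73.2) of the joint UMIs in FL8 at E14.5 and 51.9% (49.3 to 54.5) at E13.5. FL11, an unnamed cluster of low depth (medians of 2671.5 and 3862 UMIs), had 251 and 371 CPM of Prtn3 and 180 and 298 of Mpo.

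Elane was nearly confined to FL13, which held 97.3% of its UMIs at E14.5 and 97.5% at E13.5. The level there was 5156 CPM (5067 to 5246) at E14.5 and 2324 (2277 to 2372) at E13.5. In all clusters other than FL13 and FL10 together it was at 1.74 CPM (1.54 to 1.95) and 1.30 (1.14 to 1.48), close to the 1.27 CPM (0.997 to 1.59) of B lineage-like cells at E14.5. FL10 was at 7.21 CPM (5.42 to 9.41) at E14.5 and 5.57 (2.55 to 10.6) at E13.5, and FL3 at 4.36 (3.22 to 5.76) and 3.06 CPM. The low-depth cluster FL11 was at 7.14 and 6.29 CPM, from 11 and 14 Elane UMIs, and 1 cell held 6 of the 11. In FL0 (1.98 and 1.22 CPM) and FL1 (1.25 and 0.545 CPM) the intervals at E14.5 overlapped that of B lineage-like cells. FL7 and FL15, at 1.49 and 2.31 CPM at E14.5, overlapped it too, and FL3 did not. Overlap of separate intervals does not compare 2 levels directly. Whether Elane in FL0, FL1, FL7 or FL15 at E14.5 exceeded the level of B lineage-like cells was therefore not tested.

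Ctsg was held by FL13 and, at E14.5, also by FL10. FL13 was at 1868 CPM (1815 to 1923) at E14.5 and 911 (882 to 941) at E13.5, and FL10 at 399 CPM (385 to 413) and 42.1 (32.7 to 53.4). FL10 held 36.4% of all Ctsg UMIs at E14.5 and 1.57% at E13.5, while FL13 held 56.2% and 84.5%. Among progenitors Ctsg was at 24.2 and 4.55 CPM in FL15, 17.1 and 8.63 in FL3 and 10.7 and 5.82 in FL0, and it was at 0.846 and 0.347 CPM in FL1, at or below the 1.17 CPM of B lineage-like cells at E14.5.

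**Figure D3:**
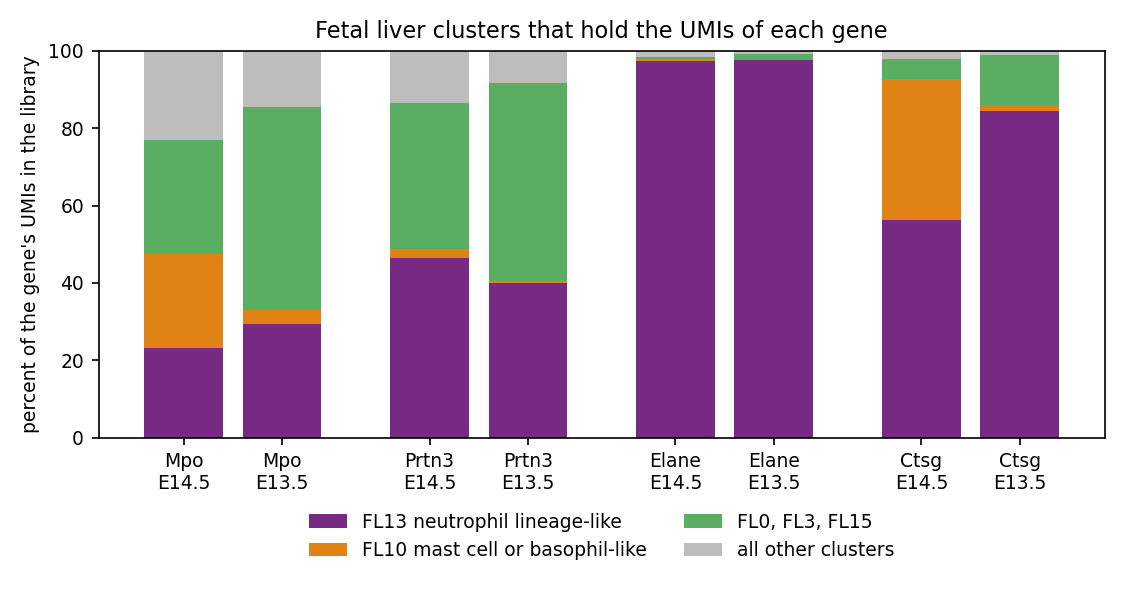
Percent of each gene's UMIs in a fetal liver library (axis from 0 to 100) held by FL13, by FL10, by FL0, FL3 and FL15 together and by all other clusters, with E14.5 left of E13.5. FL13 holds 97.3% and 97.5% of Elane UMIs, and FL10 holds 36.4% of Ctsg UMIs at E14.5 and 1.57% at E13.5.

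Within FL13 the genes parted between stages: Mpo was lower at E14.5 and the 3 proteases were higher. The log2 fold of E14.5 over E13.5 was -0.54 (-0.56 to -0.51) for Mpo, 0.32 (0.30 to 0.34) for Prtn3, 1.16 (1.12 to 1.19) for Elane and 1.04 (0.98 to 1.10) for Ctsg. Elane and Ctsg, 2 of the 4 genes, passed 1 log2 unit upward, as did 0.364% of the 7427 genes measured in the cluster, and 0.256% passed it downward. Relative to Mpo, Elane made up 40.5% (39.96 to 41.05) of the joint UMIs at E14.5 and 17.4% (17.0 to 17.7) at E13.5.

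A larger share of FL13 cells had Ctsg at E14.5. In thinned cells it was seen in 89.1% (82.3 to 93.9) at E14.5 and 54.0% (47.1 to 60.9) at E13.5, and the median per-cell level was 1978 CPM at E14.5 and 414 at E13.5. Elane was seen in 93.0% (87.1 to 96.7) and 84.4% (78.7 to 89.0), with a median of 4581 CPM at E14.5 and 1640 at E13.5. Mpo was seen in 96.9% and 98.1% and Prtn3 in 97.7% and 98.6%. The quartiles of Elane ran from 2545 to 7395 CPM at E14.5 and from 682 to 3464 at E13.5, so single cells of the stages overlapped widely.

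In FL10 Ctsg was the gene that stood out between stages, and Mpo and Prtn3 were both lower at E14.5. Ctsg had a log2 fold of 3.12 (2.78 to 3.49), in a cluster where 0.556% of 7552 measured genes were higher by 1 log2 unit or more and 0.344% lower. Ctsg was seen in 41.5% (37.7 to 45.4) of thinned FL10 cells at E14.5 and 8.18% (3.81 to 14.96) at E13.5. Mpo had a fold of -0.40 (-0.44 to -0.35) and Prtn3 of -0.76 (-0.90 to -0.61). Mcpt8, the neighbour of Ctsg and a basophil protease, was at 1627 and 360 CPM in FL10. FL10 had 708 cells (6.55% of kept cells) at E14.5 and 114 (1.17%) at E13.5.

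**Figure D4:**
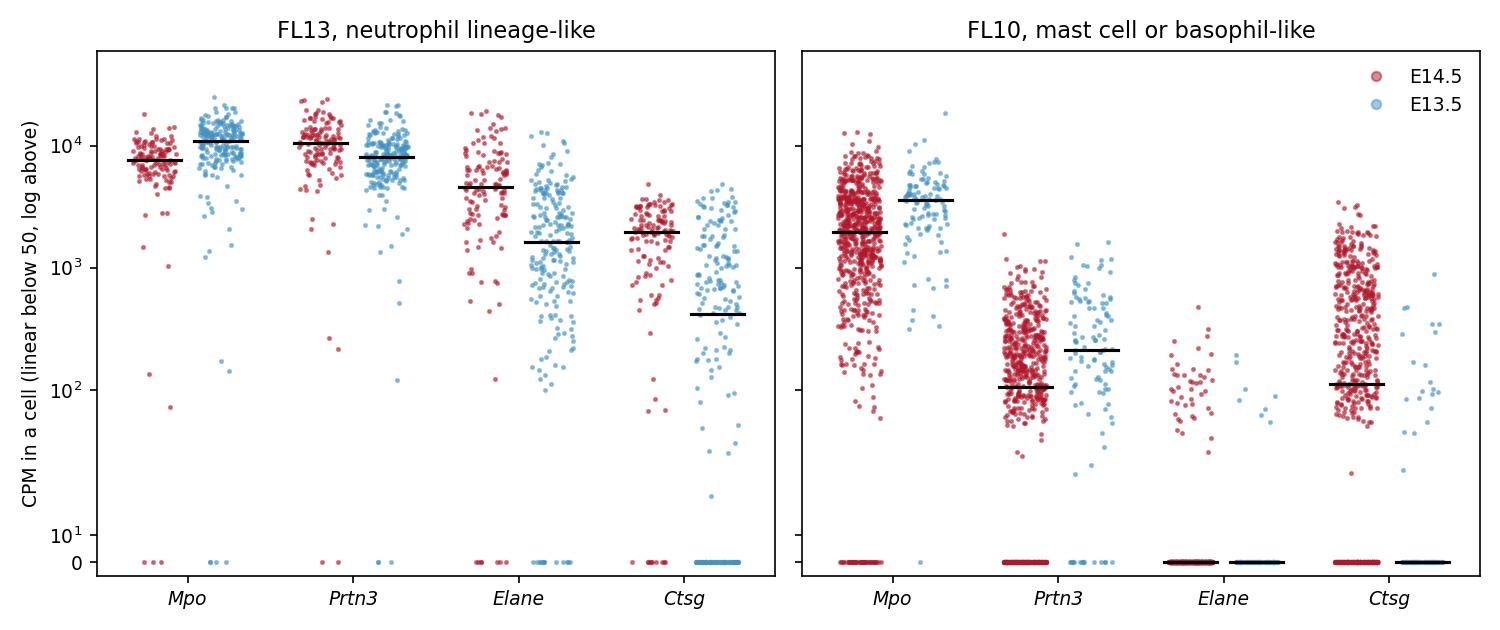
Per-cell CPM of each gene (linear below 50, log above) in FL13 on the left and FL10 on the right, 1 point per cell, E14.5 in red left of E13.5 in blue, with black lines at the medians. In FL13 the median of Ctsg is 1978 CPM at E14.5 and 414 at E13.5, and in FL10 Elane is at 0 in most cells.

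Mpo and Prtn3 also went opposite ways in FL0, FL3 and FL1. Mpo was lower at E14.5 in FL0 (log2 fold -0.26), FL15 (-0.25), FL3 (-0.43) and FL1 (-0.37), while Prtn3 was higher in FL0 (0.52), FL3 (0.26) and FL1 (0.24) and at 0.10 (-0.02 to 0.22) in FL15. Both genes were higher in FL7, with 0.49 (0.44 to 0.55) for Mpo and 0.69 for Prtn3. Both were lower in FL2, an unnamed cluster led by Cavin2, with -0.79 (-0.93 to -0.66) for Mpo and -0.35 (-0.54 to -0.15) for Prtn3. Ctsg had 0.55 in FL0, 0.69 in FL3 and 1.62 in FL15. In FL15, whose 66 and 161 cells held 42 and 20 Ctsg UMIs, 0.154% of 7780 measured genes were higher by 1 log2 unit or more and 0.206% lower. A single FL15 cell held 15 of the 42 UMIs at E14.5, and 1 cell held 10 of the 20 at E13.5. Without the cell with most Ctsg UMIs in each library the fold was 1.53 in FL15, 0.69 in FL3 and 0.42 in FL0.

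In 3 lymphoid or plasmacytoid-like clusters the lower Mpo at E14.5 passed the limit, in FL6 through 1 cell. FL6, a B lineage-like cluster, had 11.1 CPM at E14.5 (320 UMIs in 1373 cells) and 39.6 at E13.5 (37 UMIs in 55 cells), a log2 fold of -1.47 (-1.79 to -1.08), where 0.428% of 7243 measured genes were lower by 1 log2 unit or more and 0.235% higher. A single FL6 cell held 14 of the 37 UMIs, and without the cell with most Mpo UMIs in each library the fold was -0.95, which does not pass the limit. FL8 had 48.0 and 106 CPM (-1.07, -1.22 to -0.92), where 0.18% of 7769 genes were lower and 0.592% higher. P6, the B lineage-like cluster of the periphery, had 1.21 CPM from 7 UMIs at E14.5 and 18.2 from 81 at E13.5 (-2.05), where 1.99% of 6426 genes were lower and 1.29% higher. Mpo over all cells of each library was also lower at E14.5, and its part in these values was not tested.

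The stage difference over all fetal liver cells was also computed with the makeup of clusters held fixed. With the cluster levels of E14.5 weighted by the cluster shares of E13.5, Prtn3 came to 574 CPM, above its 456 CPM at E13.5, whereas the unweighted E14.5 level was 308. Mpo came to 636 CPM, against 823 at E13.5. Elane came to 115 CPM and Ctsg to 51.3, against 52.0 and 23.5 at E13.5. Without FL10 the fold over the remaining cells was 0.35 for Ctsg and -1.12 for Mpo, and without FL13 it was 1.57 for Ctsg and 0.17 for Elane. Elane without FL13 was below the measured level of 10 CPM, where the 5 CPM added weighs heavily on a fold. B lineage-like cells were 31.6% of cells at E14.5 and 1.20% at E13.5. The same weighting was made in periphery over the 16 clusters with cells at both stages. There Prtn3 came to 13.6 CPM, against 23.1 at E13.5 and an unweighted 2.49 at E14.5. Mpo came to 33.2 CPM, against 43.5 and 31.2, and Ctsg to 4.47, against 1.73 and 5.14.

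FL13 was also split at each stage into 3 near equal groups of cells (low, middle and high) by the share of UMIs from a list of 16 secondary and tertiary granule genes, an order chosen with the values already known. S100a8, S100a9, Camp, Hp and Olfm4 of that list were also among the leading genes of the cluster. S100a8 and S100a9 encode the calprotectin subunits, so the share was not of granule proteins alone. In the high group S100a8 was at 9955 CPM at E14.5 and 12621 at E13.5. Camp was at 2495 and 3163 CPM there and Ltf at 324 and 316. The order thus leaned heavily on S100a8, and whether it follows granule maturation was not tested. From the low to the high group, Elane was at 3341, 6363 and 6174 CPM at E14.5 and at 1562, 2353 and 3267 at E13.5. Prtn3 was at 7845, 11469 and 12516 CPM at E14.5 and at 6925, 8483 and 10057 at E13.5. Both proteases were lowest in the low group at each stage.

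Mpo did not show that order, with 7772, 7660 and 7200 CPM at E14.5 and 11155, 11750 and 10190 at E13.5. Ctsg was highest in the middle group at each stage, with 1561, 2287 and 1785 CPM at E14.5 and 838, 1010 and 899 at E13.5. In each of these groups Mpo was lower and the 3 proteases were higher at E14.5. The groups were cut separately at each stage and span different shares, the high group starting at 0.479% of UMIs at E14.5 and 1.08% at E13.5. The median depth of the groups was 22354, 19008 and 15056 UMIs at E14.5 and 22349, 18289 and 16944 at E13.5, and its part in these levels was not tested.

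**Figure D5:**
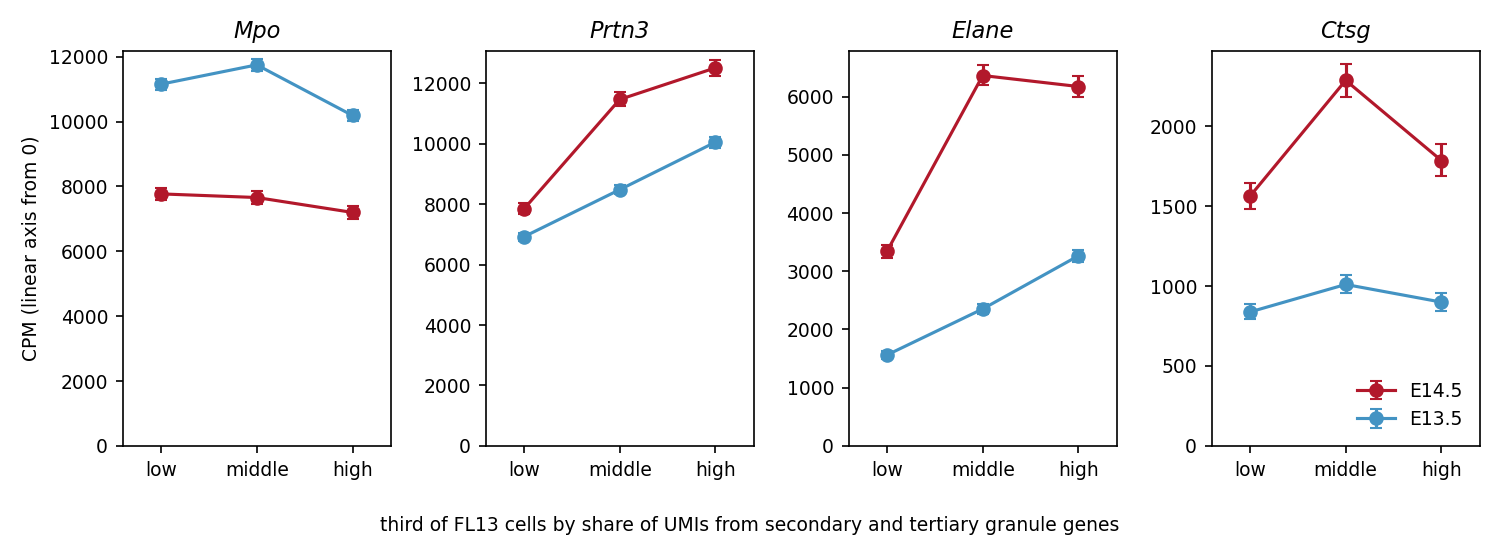
CPM of each gene (linear axes from 0) in the low, middle and high groups of FL13 cells ordered by the share of UMIs from the listed secondary and tertiary granule genes, E14.5 in red and E13.5 in blue, with 95% Poisson intervals. The list includes the calprotectin genes S100a8 and S100a9. Elane and Prtn3 are lowest in the low group, and Mpo is lower at E14.5 in every group.

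In the periphery no cluster met the naming rule for the neutrophil lineage. Mpo and Ctsg were held mainly by P13, a mast cell or basophil-like cluster led by Mcpt8 with 60 cells at E14.5 and 54 at E13.5, which held 96.0% of Mpo and 95.9% of Ctsg UMIs at E14.5 and 66.3% and 98.9% at E13.5. In P13 Mpo was at 1396 CPM (1319 to 1475) at E14.5 and 1522 (1445 to 1603) at E13.5, and Ctsg at 236 (206 to 270) and 90.2 (72.2 to 111). The log2 fold of Ctsg in P13 was 1.22 (0.87 to 1.60), past the 1 log2 unit that 3.24% of 6515 measured genes reached upward, and that of Prtn3 was -1.25 (-1.71 to -0.79), where 2.49% passed it downward. The median fold subtracted there was 0.12. Elane had 4 UMIs in P13 at each stage. Without P13 and the other mast cell or basophil-like clusters P14 and P15, the fold over the remaining periphery cells was -1.95 for Mpo and -2.27 for Prtn3.

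Prtn3 of the periphery at E13.5 came chiefly from P7, an unnamed cluster whose leading genes include Cd34 and Flt3 (572 cells, 58.0 CPM, 46.6% of Prtn3 UMIs), and from the monocyte or macrophage-like cluster P11 (116 cells, 122 CPM, 24.1%), led by S100a8 and Lyz2. At E14.5 P7 had 28 cells and P11 had 38, with Prtn3 at 54.9 CPM (37.0 to 78.4) and 39.99 (23.3 to 64.0). The plasmacytoid-like cluster P12 held 120 of the 1162 Prtn3 UMIs at E13.5, in 126 cells, and had 7 cells at E14.5. The LTi-like clusters, 3120 cells at E14.5 and 1349 at E13.5, held 12 and 11 UMIs of Mpo, 3 and 3 of Prtn3, 1 and 0 of Elane and 2 and 0 of Ctsg.

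Of 12 listed enzymes and inhibitors that process or hold the protease products, 9 were measured over all fetal liver cells. Of these 0 were past 1 log2 unit in either direction, where 1.29% of all measured genes were higher and 0.31% lower, and the median was -0.09. A count of 0 of 9 is near that background. The highest were Cst7 (cystatin F, 0.44) and Canx (calnexin, 0.27), and the lowest Serpinb1a (an inhibitor of neutrophil serine proteases, -0.47) and Slpi (secretory leukocyte protease inhibitor, -0.80). Within FL13 Slpi was at 336 CPM at E14.5 and 707 at E13.5 (-1.06), while Serpinb1a was at 1036 and 947 (0.14), Ctsc at 405 and 486 (-0.25) and Srgn at 3266 and 3310 (-0.01).

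Of 17 other primary granule and promyelocyte genes 14 were measured over all fetal liver cells and 0 passed 1 log2 unit, near the 1.29% higher and 0.31% lower of all measured genes, with a median of -0.11. Cd63 (a granule membrane tetraspanin, 0.98) was highest, and Gusb (beta-glucuronidase, -0.39) and Lyz2 (lysozyme, -0.81) lowest. In FL13 Lyz2 was at 506 CPM at E14.5 and 1093 at E13.5 (-1.09), the 1 of 14 measured past the limit, which 0.256% of all genes measured there passed downward and 0.364% upward. Lyz2 and Mpo were thus lower at E14.5 in the cluster in which the 3 serine proteases were higher.

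Of the 16 listed secondary and tertiary granule genes, a list that includes S100a8 and S100a9, 6 were measured over all fetal liver cells. Olfm4 (olfactomedin 4) was the 1 past the limit, at -1.21, the list median was -0.82, and the highest were Cybb (-0.46) and Hp (-0.63). Of all measured genes 0.31% were lower by 1 log2 unit or more and 1.29% higher. In FL13, where 10 were measured, the median was -0.40, Olfm4 was at 122 CPM at E14.5 and 495 at E13.5 (-1.97) and Ngp (neutrophilic granule protein) at 449 and 175 CPM (1.34). Of all genes measured in FL13, 0.256% passed the limit downward and 0.364% upward.

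Among 15 transcription factors of granulocyte and monocyte choice 11 were measured over all fetal liver cells, with a median of 0.05. Gata2, a factor of mast cells, basophils and stem cells, passed the limit at 1.58 and Myb was at 0.59, while Klf4 (-0.47) and Spi1 (-0.52) were lowest. The limit was passed upward by 1.29% of all measured genes and downward by 0.31%. Gata2 was among the leading genes of FL10, which had 708 cells at E14.5 and 114 at E13.5. Within FL10, 0 of the 12 factors measured passed the limit, where 0.556% of all genes measured there were higher and 0.344% lower. The part of the share of FL10 cells in the Gata2 value was not tested. In FL13 none of the 14 factors measured passed the limit, which 0.364% of all genes measured there passed upward and 0.256% downward. Cebpe, a factor of late granulocyte maturation, was at 252 CPM at E14.5 and 342 at E13.5 (-0.42), Gfi1 at 71.3 and 61.7 (0.20) and Spi1 at 375 and 420 (-0.15).

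Of 15 myeloid receptors and surface genes 12 were measured over all fetal liver cells, with a median of -0.61. Csf1r (the receptor of macrophage colony-stimulating factor, -1.18) and Cd33 (-1.27) passed the limit, and Fcgr2b (0.62) and Csf2rb (0.51) were highest. Of all measured genes 0.31% passed the limit downward and 1.29% upward. In FL13 13 were measured, 9 of them below 0, with a median of -0.42, and Cd33, at 17.4 CPM at E14.5 and 52.0 at E13.5 (-1.34), was the 1 past the limit. Of all genes measured in FL13, 0.256% passed it downward and 0.364% upward. Csf3r, the receptor of granulocyte colony-stimulating factor, was at 42.1 CPM there at E14.5 and 44.0 at E13.5 (-0.05). Of 18 family members at the same loci only Mcpt8 (3.21) and Prss57 (-0.11), which encodes a further granule serine protease, were measured. Prss57 was at 226 CPM in FL13 at E14.5 and 221 at E13.5, while Lpo and Cfd, the nearest neighbours of Mpo and Elane, had 0 UMIs in FL13 at both stages.

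The pattern of the 4 genes over 30 points (fetal liver clusters by library with 50 or more cells) was described by Pearson's r on log2(CPM + 5), with no test, since the points share 2 libraries. Mpo and Prtn3 had r = 0.90 and Elane and Ctsg 0.87, while Mpo and Elane had 0.59. Outside FL13 Elane was at most 7.21 CPM, in FL10 at E14.5, and 5 CPM was added to every value. The r values of Elane thus rest largely on FL13 and do not describe graded change over the other clusters. Among 7996 other genes, the 10 most like the mean of the 4 were Lbp (0.96), Svip, Anxa3, Gpr160, Rab32, F630028O10Rik, Gys1, Dnase2a, Cebpd and Mrpl33 (0.91). Each of them was highest in FL13, which largely follows from how they were picked, since all 4 genes were highest there. For single genes, Anxa3 was most like Mpo (0.91), Cldn15 most like Elane (0.99), Gpx1 most like Prtn3 (0.92) and Hsd17b1 most like Ctsg (0.98). Cebpe was among the 5 most like Elane (0.98).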

How the data were processed

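Gene expression was measured by 10x Genomics 3' single-cell RNA sequencing in 4 libraries, 1 per group. The deposited values are UMI counts per gene and barcode, not normalized. They were made with Cell Ranger 3 on mm10, per the submitters' processing notes, and the headers of the matrices give 3.0.0 (fetal liver) or 3.0.1 (periphery). Which filter the authors used to call cells is not given in the sources used here.

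Barcodes with under 500 genes or over 10% mitochondrial UMIs were left out, as were Scrublet doublets (898 and 865 in fetal liver, 170 and 153 in periphery, at E14.5 and E13.5). The doublet threshold was the automatic one only for fetal liver at E14.5. For the other libraries the highest scores were taken up to the expected rate of 0.8% per 1000 barcodes. In fetal liver 90 and 58 barcodes fell below the gene minimum and 341 and 119 above the mitochondrial limit, at E14.5 and E13.5.

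The stages of each site were clustered together on 2000 variable genes without the 4 genes and without haemoglobin, mitochondrial, ribosomal protein, cell-cycle and histone genes (30 principal components, 15 neighbours, Leiden resolution 1, seed 1). The tools were scanpy 1.11.5, leidenalg 0.10.2, numpy 2.4.6 and scipy 1.17.1 in Python 3.11.15. A cluster got a name if at least 3 and over 50% of a list's markers were at 20 CPM or more and exceeded the lower quartile over clusters by 1 log2 unit, and its leading 10 genes did not point elsewhere. This rule was settled after the clusters had been seen.

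Counts were summed per library and cluster. Folds are log2((CPM + 5)/(CPM + 5)) minus the median over genes of 10 CPM or more in either library, so changes of low genes are understated, and 1 log2 unit is the limit used. With 1 library per group there is no test. The fold step was tested on simulated counts. All members are named, with the highest and lowest genes of each list, genes next to the members and the most alike genes. A listed gene that this rule names is not reported here. The members and lists were chosen with earlier results of these data known.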

Additional observations from a re-analysis of the deposited data

Results flagged for a closer look

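Mpo in the innate lymphoid progenitor-like cluster FL7 had a log2 fold of E14.5 over E13.5 of 0.49, opposite in direction to the -0.54 of the neutrophil lineage-like cluster FL13. Prtn3 had -0.85 in the B lineage-like cluster FL6 and -0.76 in the mast cell or basophil-like cluster FL10, against 0.32 in FL13. The FL6 value rests on 17 Prtn3 UMIs in 55 cells at E13.5, 9 of them in 1 cell, and without the cell with most Prtn3 UMIs in each library the fold was -0.13. Each stands here because clusters moved in opposite directions under the same comparison. The difference was not tested, since each stage has 1 library.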

How the results depend on the processing

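Log2 folds of E14.5 over E13.5 are given in the order Mpo, Elane, Prtn3 and Ctsg for fetal liver and Mpo, Prtn3 and Ctsg for periphery. Values named here moved beyond their counting interval, and the cause was not tested. In fetal liver they were -0.94, 0.70, -0.69 and 0.93 with at most 5% mitochondrial UMIs, -0.81, 0.41, -0.56 and 0.92 with marked doublets kept, -0.80, 0.43, -0.55 and 0.94 over all deposited barcodes, and -0.74, 0.37, -0.63 and 1.06 with each cell weighing the same. Without centring Mpo and Prtn3 were -0.86 and -0.56, with no low-value filter -0.86 and -0.56, and Ctsg was 0.97 with a pseudocount of 1 CPM.

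In periphery the folds were -0.42, -1.90 and 0.61 without centring, and Mpo and Prtn3 were -0.45 and -1.93 with no low-value filter. Prtn3 was -1.81 with each cell weighing the same, -2.35 without ribosomal protein, mitochondrial and haemoglobin genes in the denominator and -3.03 with a pseudocount of 1 CPM, where Ctsg was 0.95. Elane in periphery, with 5 and 4 UMIs, gave no fold under any setting. None of the settings above turned the direction of a fold in fetal liver or periphery.

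Alternatives chosen after seeing the data left out clusters. Without FL13 the fetal liver folds were -0.72, 0.17, -0.70 and 1.57, and without FL10 they were -1.12, 0.52 and -0.51, with Ctsg at 0.35. Elane without FL13 was below the measured level of 10 CPM. Without P13, P14 and P15 the periphery folds were -1.95 for Mpo, -2.27 for Prtn3 and -0.22 for Ctsg, which reversed with 2 and 1 Ctsg UMIs left. Leaving out the cell with most UMIs of the gene in each library was also chosen after seeing the data. Of 37 folds within clusters it moved 2 beyond their counting interval, Mpo in FL6 to -0.95 and Prtn3 in FL6 to -0.13.

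The 4 genes summed in the highest fetal liver cluster were 25186 CPM at E14.5 and 22817 at E13.5 at resolution 0.5, and 25186 and 22833 with the members kept among the variable genes. At E14.5 they were 24579 at resolution 2, with random seed 2 and with cell-cycle genes kept.

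Shares of cells with a UMI depend on depth. Unthinned they were 46.4%, 3.84%, 39.5% and 8.10% in fetal liver at E14.5 and 70.7%, 4.16%, 63.2% and 4.25% at E13.5, for Mpo, Elane, Prtn3 and Ctsg. In periphery they were 2.005%, 0.0922%, 1.24% and 0.853% at E14.5, and 5.39%, 8.13% and 0.529% for Mpo, Prtn3 and Ctsg at E13.5. Thinned to 5000 UMIs they were 36.4%, 2.15%, 26.6% and 5.38% in fetal liver at E14.5 and 57.7%, 2.55%, 43.6% and 2.36% at E13.5. In periphery Prtn3 was then 0.799% at E14.5 and 4.23% at E13.5, and Mpo 3.52% at E13.5.

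No paired analysis was possible because each group has 1 library and leaving it out leaves none. The precision of low genes is set by their UMIs, as for Elane in periphery.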

Other observations

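Barcodes left out for more than 10% mitochondrial UMIs also carried the 4 genes. In fetal liver at E14.5 the 341 such barcodes had 1377 CPM of Mpo, 346 of Elane, 611 of Prtn3 and 204 of Ctsg, and the 119 at E13.5 had 910, 50.1, 566 and 3.13 CPM.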
